A study of Mus musculus with 6 samples.

Results

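The genes described here are those carried by the mitochondrial genome itself, chosen as every gene whose symbol starts with mt-. There were 37 of them among the 55769 features listed for each library: 13 mRNAs, 2 ribosomal RNAs (rRNAs) and 22 transfer RNAs (tRNAs). The study sequenced total RNA of cochleae, the hearing organs of the inner ear, of Plscr5-/- mice and of wild type mice at postnatal day 3, and each genotype has 3 libraries. The protein of Plscr5 is a phospholipid scramblase by family, a class of membrane proteins that move lipids across the bilayer. The labels give no allele beyond the knockout, no strain and no number of mice per library, so p-values refer to library-to-library spread, which may be partly technical. Plscr5 itself was listed at 3.69 to 5.01 in the knockout and 9.27 to 14.53 in the wild type, in TPM (transcript abundance per unit of length, scaled to the same total in each library). Depth is unknown, since TPM keeps no read totals, and errors are SD over 3 libraries.

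The mitochondrial genome is a small circle inherited apart from the nucleus. Both of its strands are copied into long polycistronic RNAs, and tRNAs that lie between most of the protein genes are cut out, which frees the mRNAs and rRNAs. Its mRNAs encode core membrane subunits of the respiratory chain complexes I, III and IV and of the ATP synthase, complex V, and every other subunit comes from nuclear genes. The cochlea spends much energy on ion transport, and hearing loss is a common feature of mitochondrial disease. Pieces of mitochondrial DNA have also been inserted into nuclear chromosomes, where they are annotated as pseudogenes.

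Such nuclear copies held a large part of the mitochondrial signal in these files. In the GENCODE M21 transcripts, 11 pseudogenes aligned to 9 of the mitochondrial mRNAs at 95% identity or more over at least 100 bases. Of these, 7 form 1 block of 4663 bases on chromosome 1, in the order and with nearly the spacing of the mitochondrial genes from mt-Co1 to mt-Nd4. In 5 copies the aligned stretch was identical to the mitochondrial gene. They were Gm28661 over 681 bases of mt-Co2, Gm10925 over 678 bases of mt-Atp6, Gm28437 over 783 bases of mt-Co3, Gm10222 over 294 bases of mt-Nd4l and Gm28439 over 876 bases of mt-Nd4. Coordinates are not given, because the submitters' processing notes name the build mm8 and the annotation used here is GRCm38.

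The pair on which the genotype comparison turned is shown first, from the GENCODE M21 transcripts, 5′ to 3′. The capitals in mt-Nd4l are the 7 bases it shares with the start of mt-Nd4, and those in Gm10222 are the part of these bases that the copy holds.
mt-Nd4l: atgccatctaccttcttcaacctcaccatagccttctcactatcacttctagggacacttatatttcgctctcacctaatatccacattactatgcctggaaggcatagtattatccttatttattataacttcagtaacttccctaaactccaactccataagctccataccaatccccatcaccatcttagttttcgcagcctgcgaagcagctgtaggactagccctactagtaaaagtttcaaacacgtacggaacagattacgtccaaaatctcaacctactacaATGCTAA
Gm10222: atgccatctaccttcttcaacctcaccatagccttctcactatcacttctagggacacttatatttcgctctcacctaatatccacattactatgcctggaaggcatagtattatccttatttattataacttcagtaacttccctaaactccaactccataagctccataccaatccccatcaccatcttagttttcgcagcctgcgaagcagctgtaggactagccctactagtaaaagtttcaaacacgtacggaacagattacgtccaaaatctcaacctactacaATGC
The 2 sequences are the same over all 294 bases of the copy, and mt-Nd4l is longer by its last 3 bases.

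A pair of other copies differ from their gene at 1 base in the aligned stretch, shown in capitals. Gm28438 differs from mt-Nd3 by T3C, and Gm29216 from mt-Co1 by A1066T, with positions counted from 1 at the 5′ end of the mitochondrial gene.
mt-Nd3: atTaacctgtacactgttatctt
Gm28438: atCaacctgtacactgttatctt
mt-Co1: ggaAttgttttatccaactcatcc
Gm29216: ggaTttgttttatccaactcatcc
Both differing bases lie within the first few bases of the aligned stretch, and the rest of each pair is identical.

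The tRNAs, which carry amino acids to the mitochondrial ribosome, had no listed abundance. All 22 were listed at 0 in all 6 libraries, and with lengths of 59 to 75 bases they were the shortest of the mitochondrial genes. The other 15 genes were above 0 in every library and passed the filter of at least 1 TPM in at least 3 libraries. Nuclear-encoded RNAs listed as lacking poly(A) tails ranged widely, but whether each of them lacks a tail in these cochleae was not checked. Of 16 RNAs listed to check the kind of library, 12 had a symbol in the files. Snord118 was listed at 0 throughout, Rmrp at 0 to 7.45 TPM, Rpph1 at 0 to 6.79 TPM and Hist1h4c at 0 to 0.56 TPM, while Hist1h2bc stood at 31.2 to 36.4 TPM and Hist1h1c at 12.05 to 21.3 TPM. Snora73b was uneven, at 22.4, 3.41 and 13.6 TPM in Plscr5-/- libraries and at 0, 0.01 and 9.82 TPM in wild-type ones. The other 5 stayed at or below 3.03 TPM. The labels do not say whether poly(A) selection or rRNA depletion was used.

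The 37 mitochondrial genes together held between 6.62% and 7.76% of all TPM. The share was 6.62%, 7.76% and 7.49% in knockout replicates 1, 2 and 3, and 7.75%, 7.34% and 7.19% in the wild type. The means were 7.29% ± 0.60 and 7.43% ± 0.29, a difference of -0.13 percentage points that is smaller than either SD. The groups overlapped, and knockout replicate 1 was the lowest library. The difference was 0.20 points without that library and 0.03 points without wild type replicate 1, so its sign rested on them. With the nuclear copies added, the shares were 12.5% ± 0.9 in the knockout and 12.6% ± 0.3 in the wild type, so the copies carried between 40.0% and 42.4% of the combined signal.

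The rRNAs build the mitochondrial ribosome. mt-Rnr1, the small-subunit rRNA, was listed at 506, 345 and 311 TPM in Plscr5-/- cochleae and 590.4, 474 and 330.1 TPM in wild-type ones. mt-Rnr2, the large-subunit rRNA, stood at 359, 256 and 229 TPM and at 452, 327 and 249 TPM. The genotypes overlapped at both genes, and the 6 libraries came in the same order at both, with wild type replicate 1 highest and knockout replicate 3 lowest. The ratio of mt-Rnr1 to mt-Rnr2 stayed between 1.31 and 1.45. The rRNAs did not follow the mRNAs: knockout replicate 1 came next after the highest library for both rRNAs and was lowest for 8 of the 13 mRNAs as listed.

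Among the mRNAs as listed, mt-Atp8 stood far above the rest. This subunit of the ATP synthase ranged from 29411 to 36337 TPM over the 6 libraries. At 204 bases mt-Atp8 is also the shortest of the mRNAs. How reliable a value per unit of length is for so short a gene was not tested. mt-Co1, the catalytic subunit of cytochrome c oxidase (complex IV), followed at 10908 to 12189 TPM. mt-Cytb, the cytochrome b of complex III, stood at 7101 to 7895 TPM. The ranges of these 3 genes did not overlap each other or that of any other mitochondrial mRNA.

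The complex I subunits came next. mt-Nd1 ranged from 4759 to 6193 TPM, mt-Nd4 from 3802 to 4279 TPM and mt-Nd2 from 2570.2 to 3052 TPM, with no overlap between them. mt-Nd5 (2023 to 2538 TPM) and mt-Nd6 (1813 to 2387 TPM) overlapped, as did mt-Nd3 (933 to 1410.1 TPM) and mt-Nd4l (687 to 1231 TPM). The lowest mRNAs were the other ATP synthase subunit, mt-Atp6 (401 to 619 TPM), and the other complex IV subunits, mt-Co3 (83.2 to 543 TPM) and mt-Co2 (135 to 605 TPM), whose ranges overlapped one another.

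**Figure D1:**
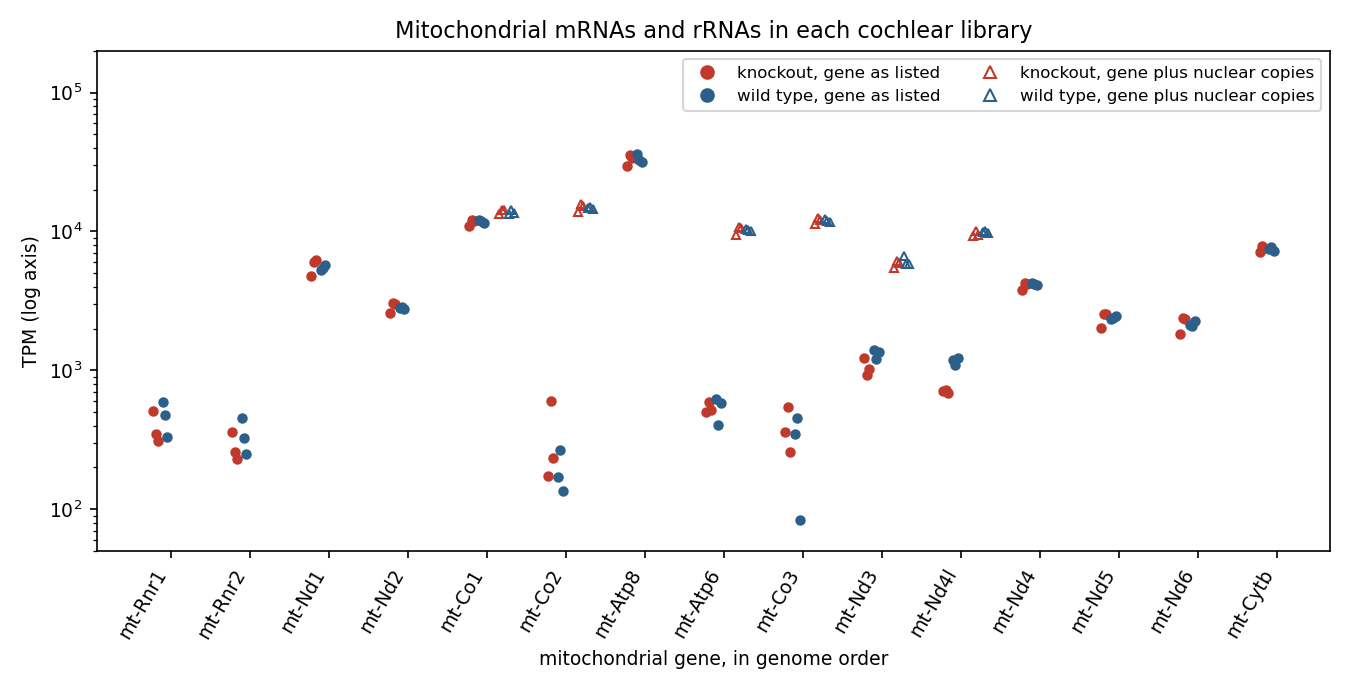
TPM (log axis) of the 13 mitochondrial mRNAs and 2 rRNAs in genome order, 1 point per library; filled circles are the genes as listed, open triangles the genes plus their nuclear copies, drawn where the copies add more than a few percent. mt-Co2, mt-Atp6 and mt-Co3 lie at or below 619 TPM as listed and at or above 9369 TPM with their copies, while mt-Atp8, with a mean of 33249.6 TPM, has no copy in the annotation.

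This order changed when the copies were counted with their genes. Only 6 copies were above 1 TPM in every library, all of them in the block on chromosome 1, and the other 5, among them Gm28439 at 0, were at or below 2 TPM. Gm28661 held a mean of 14555 TPM where mt-Co2 held 264 TPM, so 98.2% of their sum was listed under the copy. The copy's part was 97.1% for mt-Co3 (Gm28437), 94.8% for mt-Atp6 (Gm10925), 90.4% for mt-Nd4l (Gm10222), 80.1% for mt-Nd3 (Gm28438) and 15.5% for mt-Co1 (Gm29216 with Gm13340). Gm29216 matches only the last part of mt-Co1, so their TPM refer to different lengths. Reads from an identical gene and copy cannot be told apart by sequence, so mt-Co2, mt-Co3, mt-Atp6 and mt-Nd4l alone are uncertain. The same holds for mt-Nd4 over the 876 bases it shares with Gm28439, although that copy was listed at 0. For mt-Nd3 and mt-Co1, reads of the stretch aligned to Gm28438 or Gm29216 differ only at 1 base, so these genes alone are uncertain too.

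In sums of gene and copies, mt-Co2 stood at 13800.2 to 15717 TPM, mt-Co1 at 13399 to 14370 TPM, mt-Co3 at 11360 to 12451 TPM, mt-Atp6 at 9369 to 10840.5 TPM, mt-Nd4l at 9283 to 10093 TPM and mt-Nd3 at 5430.4 to 6674 TPM. In these sums the complex IV mRNAs lay close together. The mt-Co1 sum, and so the complex IV share with copies, adds TPM that refer to different lengths. By complex, the share of the summed mRNA signal of mitochondrial genes and copies in the knockout and the wild type was 26.3% ± 0.2 and 26.4% ± 0.5 for the 7 complex I mRNAs. It was 6.09% ± 0.12 and 5.99% ± 0.18 for mt-Cytb, 33.0% ± 0.7 and 32.4% ± 0.7 for the 3 complex IV mRNAs and 34.7% ± 0.6 and 35.1% ± 1.2 for the ATP synthase mRNAs. Most of the ATP synthase share was that of mt-Atp8, which alone held 26.4% ± 0.6 and 26.9% ± 1.3. The groups differed by less than the larger SD at each complex. As listed, without copies, complex IV held 17.2% ± 0.5 and 16.7% ± 0.5 and complex V 46.2% ± 0.4 and 46.5% ± 1.6.

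Gene length bore a different relation to abundance in the 2 views. As listed, the 5 lowest mRNAs were all among the 7 shortest, namely mt-Nd4l (297 bases), mt-Nd3 (348 bases), mt-Atp6 (681 bases), mt-Co2 (684 bases) and mt-Co3 (784 bases), whereas the shortest of all, mt-Atp8 (204 bases), was the highest. Across the 12 mRNAs other than mt-Atp8, log2 TPM in wild-type ones correlated with log2 length at a Pearson r of 0.496 and a Spearman rho of 0.65. With copies added these values were -0.201 and -0.147. With mt-Atp8 included, r was 0.019 as listed and -0.468 with copies. Position on the heavy-strand transcript, which carries 12 of the mRNAs, gave an r of -0.053 as listed and -0.223 with copies in the wild type. These are descriptions across genes that share libraries, and genes are not independent replicates.

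Neighbouring protein genes on the heavy-strand transcript overlap by more than 1 base in 2 places, where a single mRNA carries both genes. mt-Atp6 and mt-Co3 share 1 base. mt-Atp8 is shown whole, with its 43 bases that are also the start of mt-Atp6 in capitals, because its level departs most from that of its partner.
mt-Atp8: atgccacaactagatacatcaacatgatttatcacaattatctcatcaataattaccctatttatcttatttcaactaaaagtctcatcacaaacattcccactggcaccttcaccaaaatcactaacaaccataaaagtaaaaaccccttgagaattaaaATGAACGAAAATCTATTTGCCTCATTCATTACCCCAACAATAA
mt-Atp8 was listed at 54.9 to 81.7 times mt-Atp6, and at 3.14 to 3.50 times the sum of mt-Atp6 and Gm10925. The annotation places no copy of mt-Atp8 in the chromosome 1 block, although the gap between Gm28661 and Gm10925 is 233 bases, the same as between the matching positions of the mitochondrial genome, where mt-Atp8 lies.

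The other pair that overlaps by more than 1 base is mt-Nd4l and mt-Nd4, which share 7 bases. mt-Nd4l was listed at 0.186, 0.168 and 0.164 of the level of mt-Nd4 in the knockout and at 0.277, 0.259 and 0.298 in the wild type, with no overlap between groups. With Gm10222 added to mt-Nd4l the ratio was 2.44, 2.35 and 2.25 in the knockout and 2.31, 2.41 and 2.35 in the wild type, and the groups overlapped. On the log2 scale the difference in this ratio was -0.69 as listed and -0.0058 with the copy. Over the 11 pairs of neighbouring heavy-strand mRNAs, an exact two-sided permutation test gave mt-Nd4l against mt-Nd4 p = 0.1, the smallest that 3 against 3 can give, and a Benjamini-Hochberg adjusted p of 0.55. This pair was named with its earlier result known, so its p-value is a description only. The ratio of mt-Nd3 to mt-Nd4l was the only other one whose groups did not overlap (log2 difference 0.40, exact permutation p = 0.1, adjusted 0.55). Both ratios contain mt-Nd4l, so they are not separate results. With copies added the log2 difference of mt-Nd3 to mt-Nd4l was -0.02 with overlapping groups. The other 9 ratios had exact p values from 0.3 to 0.9.

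mt-Nd6 is the 1 mRNA encoded on the light strand, and it overlaps the 3′ end of mt-Nd5, on the opposite strand, by 14 bases. Its level was 0.876 to 0.941 of that of mt-Nd5 in every library. The sources used here do not say whether the library or the counting kept strand, and without strand the reads of a gene and of an antisense transcript cannot be told apart.

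The comparison of genotypes called 1 mitochondrial gene. mt-Nd4l (ENSMUSG00000065947), a subunit of complex I, was listed at 708, 718 and 687 TPM in the 3 Plscr5-/- libraries and at 1180.2, 1087 and 1231 TPM in wild-type ones. Every knockout value lay below every wild-type value. Its log2 fold change, knockout minus wild type on the scale of log2(TPM + 1), was -0.72 (SE 0.06, limma adjusted p = 0.0163). It was the only 1 of 15 tested mitochondrial genes past the adjusted threshold of 0.05, at which 0.0117% of all 17097 tested features were called lower, 2 in number. None was called higher among the mitochondrial genes or among all features by limma.

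The copy that shares its sequence held more than 6 times its signal in every library, and its groups overlapped. Gm10222 was listed at 8575, 9355 and 8724 TPM in Plscr5-/- cochleae and at 8674, 9006 and 8474 TPM in wild-type ones, with overlapping groups and a log2 fold change of 0.03 (SE 0.05, 95% confidence interval -0.08 to 0.13, limma adjusted p = 0.99). The sum of mt-Nd4l and Gm10222 was 9283, 10073 and 9411 TPM in Plscr5-/- cochleae and 9854, 10093 and 9704 TPM in wild-type ones. These groups overlapped too. Gm10222 made up 90.4% of the mean sum, so a change in mt-Nd4l alone moves the sum little. In a fit across all features with each gene and its copies summed, mt-Nd4l had a log2 fold change of -0.04 (SE 0.04, 95% confidence interval -0.14 to 0.05, limma adjusted p = 0.989). In that fit 0.00585% of 17091 features were called, 1 in number, and 0 mitochondrial genes. The groups did not overlap, with lower knockout values, at 0 of the 13 mRNAs, beside 4.73% of all features.

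**Figure D2:**
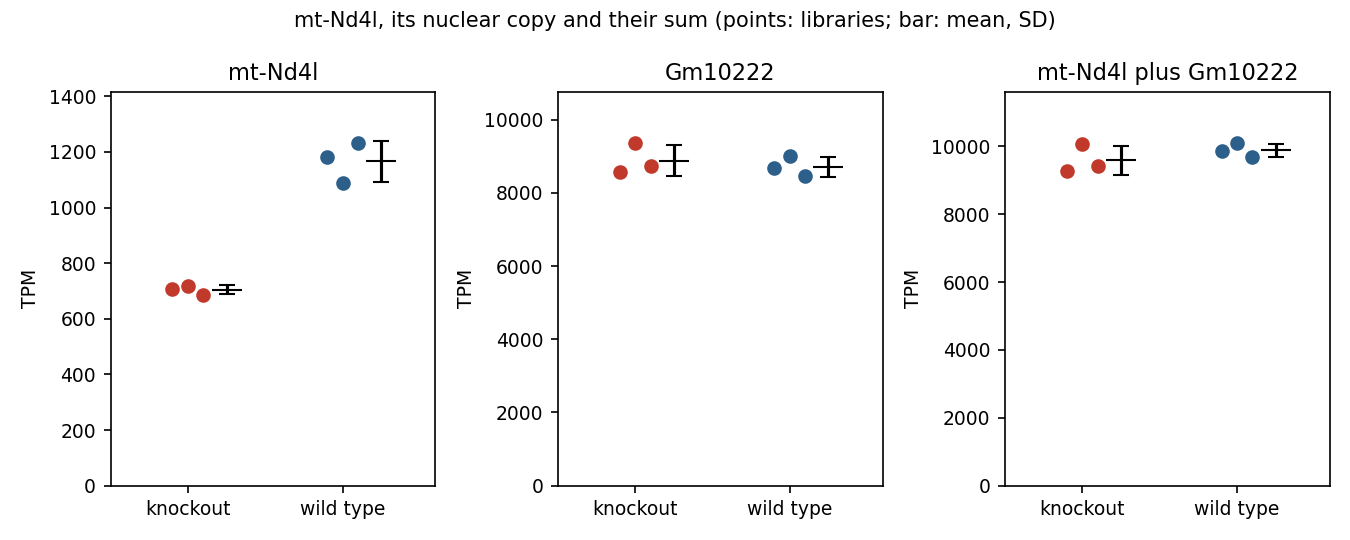
TPM of mt-Nd4l, of its nuclear copy Gm10222 and of their sum in each library, with the mean and SD of 3 libraries per genotype; each axis starts at 0 and the scales differ. The knockout values of mt-Nd4l, 687 to 718 TPM, lie below all wild-type values, whereas the groups overlap for the copy and for the sum.

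The share of the sum that was listed under the gene separated the genotypes as mt-Nd4l itself did. It is computed from the same values and is not a further result. mt-Nd4l made up 7.63%, 7.13% and 7.30% of the sum in the knockout and 11.98%, 10.8% and 12.7% in the wild type, a difference of -4.46 percentage points in the means. For the other 5 mRNAs with an abundant copy the groups overlapped in this share. It ran from 15.1% to 22.6% in the knockout and from 20.7% to 23.2% in the wild type for mt-Nd3. For mt-Atp6 it ran from 4.92% to 5.49% and from 3.92% to 5.96%, and for mt-Co3 from 2.15% to 4.36% and from 0.711% to 3.80%. Because these shares were computed for chosen genes, no test is given.

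**Figure D3:**
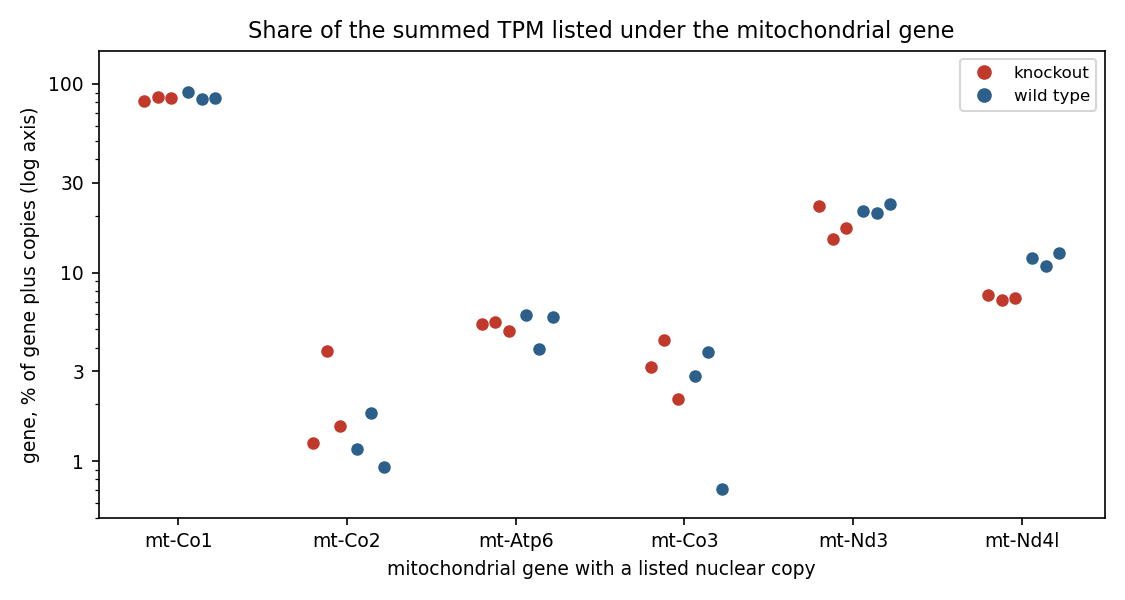
Share of the summed TPM of gene and copies that was listed under the mitochondrial gene (percent, log axis), 1 point per library, for the 6 mRNAs with an abundant nuclear copy. Only mt-Nd4l among these 6 has knockout points, 7.13% to 7.63%, that lie wholly below the wild-type points, 10.8% to 12.7%.

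The call on mt-Nd4l alone depended on the settings. Its log2 fold change kept its sign and size, between -0.77 and -0.68, in 17 other settings, but the adjusted p was below 0.05 in 9 of them. The call ended without knockout replicate 1 (limma adjusted p = 0.112), 2 (0.101) or 3 (0.132), without wild type replicate 1 (0.0853), with no low-value filter (0.0924), with no intensity trend (0.318), with median-of-ratios scaling (0.065) and with the replicate block (0.174). The 6 hair cell markers, summed, ran from 154.6 to 189.9 TPM over all libraries and overlapped. Sums of spiral ganglion neuron, red blood cell, skeletal muscle, osteoblast, chondrocyte, macrophage and brown fat markers overlapped too. Of the marker lists examined, only the Schwann cell list and the cochlear epithelium and tectorial matrix list separated the genotypes as sums. Of all tested features, 9.33% did not overlap in either direction. The lists were compared only as sums, in which the most abundant markers weigh most. The summed TPM of 5 Schwann cell markers ran from 1343 to 2064 in the knockout and from 468 to 1316 in the wild type. Wild type replicates 1 and 2 stood at 1218 and 1316, and replicate 3 at 468. That of 7 cochlear epithelium and tectorial matrix markers ran from 7626 to 7904 and from 8330.5 to 9860.2. None of either list was at 0 in all libraries, and their part in the mt-Nd4l value was not tested.

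No other mitochondrial gene passed. At an unadjusted limma p below 0.05 there were 2 of the 15, mt-Nd4l and mt-Nd3, beside 4% of all features. mt-Nd3, a complex I subunit, was the next closest, at 1226, 933 and 1014 TPM in Plscr5-/- cochleae and 1410.1, 1203 and 1348 TPM in wild-type ones. Knockout replicate 1 lay above wild type replicate 2, so the groups overlapped. Its log2 fold change was -0.33 (SE 0.11, limma adjusted p = 0.989), and with Gm28438 added it was -0.06 (SE 0.07).

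The complex IV subunits mt-Co2 and mt-Co3 had the largest positive values and the widest spread. mt-Co2 was listed at 172, 605 and 233 TPM in Plscr5-/- cochleae and 171, 268 and 135 TPM in wild-type ones. Its log2 fold change of 0.66 (SE 0.55) was 0.12 without knockout replicate 2, the library with 605 TPM, and 1.03 without knockout replicate 1. It was 0.43 without wild type replicate 3 and 0.02 (SE 0.05) with its copies added. mt-Co3 was listed at 359.9, 543 and 260 TPM and at 349, 453 and 83.2 TPM. Its value of 0.64 (SE 0.75) was -0.10 without wild type replicate 3, the library with 83.2 TPM, and 1.11 without wild type replicate 2. It was 0.37 without knockout replicate 2 and -0.0023 (SE 0.04) with Gm28437 added. Both genes overlapped between genotypes.

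The remaining 9 mRNAs had smaller values. mt-Nd1, mt-Nd2, mt-Co1, mt-Atp8, mt-Atp6, mt-Nd4, mt-Nd5, mt-Nd6 and mt-Cytb had log2 fold changes between -0.04 (mt-Nd4) and 0.04 (mt-Nd1). mt-Cytb, for example, was listed at 7101, 7895 and 7648 TPM in Plscr5-/- cochleae and 7455, 7704 and 7257 TPM in wild-type ones (95% confidence interval of the log2 fold change -0.10 to 0.13). Knockout replicate 1 was below the other knockout libraries at each of these 9 genes, and its omission changed the sign of mt-Co1, mt-Atp8, mt-Nd4 and mt-Nd5. Without knockout replicate 2 the sign of mt-Nd1, mt-Nd2, mt-Atp6, mt-Nd6 and mt-Cytb changed. The rRNAs had values of -0.25 (mt-Rnr1, SE 0.27) and -0.27 (mt-Rnr2, SE 0.26). With 1 library omitted they ran from -0.06 and -0.05 without wild type replicate 1 to -0.48 for both without wild type replicate 3. They were -0.46 for both without knockout replicate 1, and -0.11 and -0.13 without knockout replicate 3.

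Over the 13 mRNAs as listed 7 log2 fold changes were positive and 6 negative, with a median of 0.0088 and a range of -0.72 to 0.66, beside a median of -0.01 over all features. With copies added, 7 were again positive and 6 negative, the median was 0.0044 and the range -0.06 to 0.04. The groups did not overlap at 1 of the 15 tested genes, mt-Nd4l, where knockout values were lower. Of all features, 4.74% did so in that direction and 9.33% in either.

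**Figure D4:**
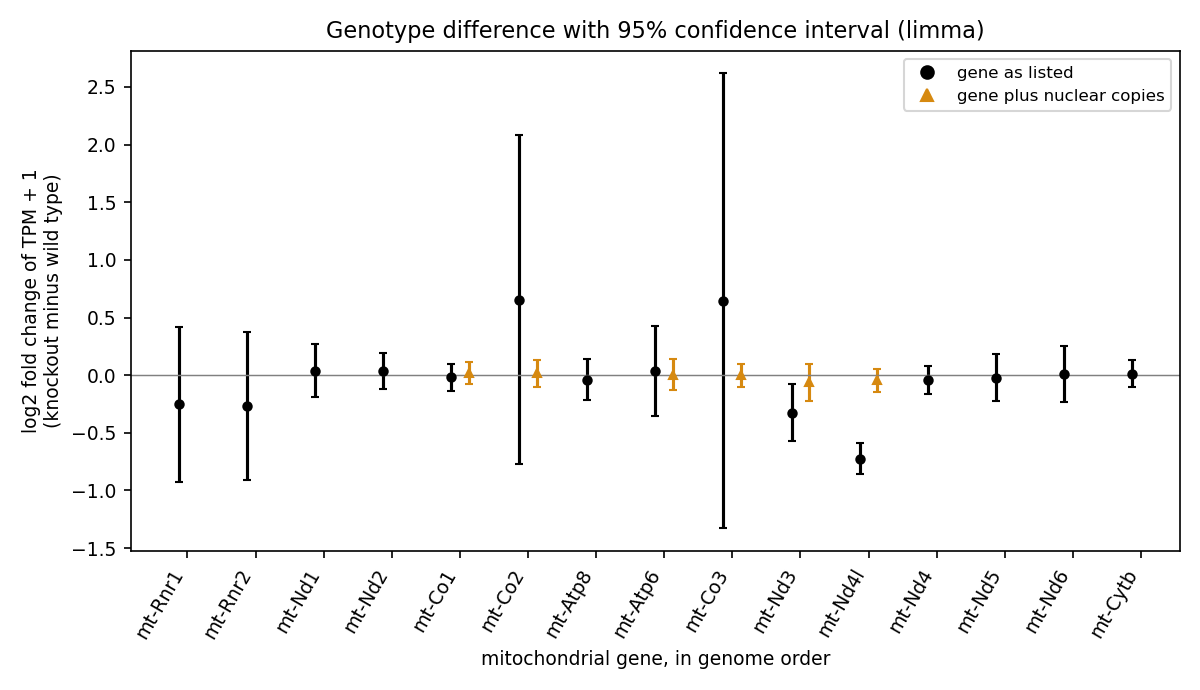
Log2 fold change of TPM + 1, knockout minus wild type, with its 95% confidence interval from limma for 15 mitochondrial genes; circles are the genes as listed and triangles the genes plus copies, drawn where the copies change the level. The listed values spread from -0.72 (mt-Nd4l) to 0.66 (mt-Co2), and those with copies lie between -0.06 and 0.02.

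Adding the copies also narrowed the spread between libraries. For the 6 mRNAs with an abundant copy the coefficient of variation over 6 libraries had a median of 21.5% as listed (4.06% for mt-Co1 to 65.9% for mt-Co2) and of 3.93% with copies (3.15% to 7.04%). For the other 7 mRNAs it was 3.95% to 9.93%. Except at mt-Co1, the abundant copies held 80.1% or more of the sums, so the spread with copies is mostly that of the copies. In the sums, knockout replicate 1 was the lowest library at all 13 mRNAs and knockout replicate 2 the highest at 9 of them. Knockout replicate 1 also had the highest summed Schwann cell markers, 2064 TPM, whose part in this was not tested. As shares of the summed mitochondrial mRNA signal, the 13 mRNAs varied between libraries by 0.876% (mt-Atp6) to 6.93% (mt-Nd6), and the genotypes overlapped at each.

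Among the nuclear genes that copy, cut and stabilise mitochondrial RNA, none was called by limma. Of 19 genes of mitochondrial transcription and replication, 12 were higher and 7 lower in the knockout, and 0 passed the limma threshold or had an unadjusted p below 0.05. Of all features 7969 were higher and 9128 lower, 0.0117% passed and 4% had an unadjusted p below 0.05. The median log2 fold change of the list was 0.05, beside -0.01 over all features. Polrmt, the mitochondrial RNA polymerase, was listed at 29.7 ± 3.0 TPM in Plscr5-/- cochleae and 25.1 ± 3.9 TPM in wild-type ones. Tfam, which packages mitochondrial DNA and starts its transcription, stood at 39.4 ± 6.9 and 36.7 ± 6.1 TPM. Tefm, an elongation factor, stood at 9.55 ± 0.99 and 12.7 ± 3.4 TPM.

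Of 30 tested genes of mitochondrial RNA processing, polyadenylation and turnover, 13 were higher and 17 lower, with a median of -0.02. Lrpprc, which stabilises mitochondrial mRNAs, stood at 21.8 ± 1.0 and 21.1 ± 1.2 TPM. Tbrg4, a member of the FASTK family of RNA-binding proteins, was listed at 26.9, 25.1 and 24.6 TPM in Plscr5-/- cochleae and 23.2, 23.2 and 23.3 TPM in wild-type ones. It was the only gene of that list whose groups did not overlap (log2 fold change 0.13, SE 0.08, limma adjusted p = 0.989), 1 of 30, where 9.33% of all features did not overlap in either direction. Of 11 regulators of mitochondrial biogenesis 4 were higher and 7 lower (median -0.03), among them the coactivator Ppargc1a at 5.34 ± 0.40 and 4.41 ± 1.53 TPM. Of 18 tested complex I assembly factors 9 were higher and 9 lower (median 0.02), among them Ndufaf3 at 23.2 ± 1.5 and 20.4 ± 2.6 TPM. In these 3 lists 0 genes passed, and 0 had an unadjusted limma p below 0.05, beside 0.0117% and 4% of all features.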

How the data were processed

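The authors deposited 1 table per library with values in TPM. The unit was read from the values, which sum to 1000000 in each library. DESeq2 and the build mm8 are named, without a role, in the submitters' processing notes; which aligner and quantifier the authors used is not stated there. Symbols came from GENCODE M21 (GRCm38), and 52083 IDs matched. The extraction text speaks of another mutant line, so groups follow the titles and the genotype field.

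The 17097 features that reached 1 TPM in 3 or more libraries were transformed to log2(TPM + 1). All were fitted for genotype by limma (version 3.58.1, under R 4.3.3), using an intensity trend and robust moderation, with Benjamini-Hochberg adjustment and a threshold of 0.05. Copies were found with blastn 2.17.0 over all GENCODE M21 transcripts, so listed features absent from that annotation were not searched for copies. The fit was tested on simulated data. Alternatives were scalings, filters, pseudocounts, variance settings, a replicate block and each library left out. Summing genes with copies was added after seeing the data. Named genes were all members, the most abundant copies, Tfam, Polrmt, Lrpprc and up to 4 genes with the smallest p per list. The members and lists were chosen with earlier results of these data known.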

Additional observations from a re-analysis of the deposited data

How the results depend on the processing

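The difference in the share of TPM held by mitochondrial genes, -0.13 percentage points, ran from -0.37 to 0.20 with 1 library omitted. The log2 difference in the ratio of mt-Nd4l to mt-Nd4, -0.69, ran from -0.74 to -0.64 with 1 library omitted and was -0.0058 with copies summed. The count of mitochondrial genes called lower, 1, was 0 with no low-value filter, no intensity trend, median-of-ratios scaling, the replicate block or copies summed, and 0 to 1 with 1 library omitted. The count of all features called lower, 2, was 1 with a pseudocount of 5, median-of-ratios scaling or copies summed, 0 with no low-value filter, no intensity trend or the replicate block, and 0 to 2 with 1 library omitted. The count called higher, 0, was 1 with a pseudocount of 5 and 0 to 2 with 1 library omitted. Causes were not tested. The labels do not say that the replicate numbers pair the libraries, and they were not taken to. Deviations of same-numbered libraries correlated at 0.188, -0.055 and 0.242, and those of differently numbered ones at -0.269 to 0.126. Values of 0.188 and 0.242 thus lay above every differently numbered pair, and a pairing was not tested. With the replicate block 1250 features, against 684, had an unadjusted limma p below 0.05. Among them were mt-Nd3 (0.0014), mt-Rnr1 (0.020) and mt-Rnr2 (0.0075), each with a limma adjusted p of 0.663.

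Several uncalled log2 fold changes changed sign or became 0, all of them within 0.05 of 0 in the reported fit except that of mt-Co3 (0.64). With quantile normalization they were 0 for mt-Co1, mt-Atp8, mt-Cytb, Gm10925, Gm28661, Gm28437 and Gm10222, -0.0004 for mt-Atp6, 0.0397 for mt-Nd4, -0.0066 for mt-Nd6 and 0.0503 for Gm28438 (0.01 with median-of-ratios scaling). With copies summed mt-Co1 was 0.0202 and mt-Co3 -0.0023. With 1 library omitted the ranges were -0.0283 to 0.162 for mt-Nd1, -0.0098 to 0.114 for mt-Nd2, -0.0519 to 0.0282 for mt-Co1, -0.0905 to 0.0397 for mt-Atp8, -0.156 to 0.156 for mt-Atp6, -0.103 to 1.11 for mt-Co3, -0.0722 to 0.0131 for mt-Nd4, -0.0784 to 0.085 for mt-Nd5, -0.0605 to 0.138 for mt-Nd6 and -0.0195 to 0.057 for mt-Cytb. Among the copies they were -0.0351 to 0.0692 for Gm10925, -0.0241 to 0.0505 for Gm28661, -0.0343 to 0.0229 for Gm28437, -0.0698 to 0.0893 for Gm28438 and -0.0109 to 0.0519 for Gm10222. Depth is unknown and no counting error can be given.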
